A study of Mus musculus with 4 samples.

Results

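The insulin-like growth factor (IGF) binding proteins and the IGF receptors were read in cultured mouse keratinocytes in which the gene of the repressor Blimp-1 could be deleted. The set held 8 genes, 6 binding proteins (Igfbp2, Igfbp3, Igfbp4, Igfbp5, Igfbp6 and Igfbp7) and 2 receptors (Igf1r and Igf2r), out of 12393 genes named by the array. They were taken as every probe set whose platform annotation gave 1 of these 8 symbols, which found 18 of 22626 probe sets. The members were chosen by their symbols, with their log2 intensities in the 4 groups already known, so all their differences below are a description.

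IGF1 and IGF2 are secreted ligands that act through the tyrosine kinase receptor Igf1r and drive survival and growth of keratinocytes, among other cells. The binding proteins are secreted too, hold the ligands outside the cell and are cleaved by proteases, so that they store, withhold or release them. Several also act on cells without binding an IGF. Igf2r, the cation-independent mannose 6-phosphate receptor, takes IGF2 up for degradation and carries lysosomal enzymes.

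The cells were primary cultured keratinocytes, the epithelial cells of the epidermis, from the tail skin of C57BL/6 mice, and every group carried a floxed Prdm1 gene, the gene of Blimp-1, flanked by sites of the Cre recombinase. CKO 4OHT cells also carried CreER, a Cre that enters the nucleus when 4-hydroxytamoxifen (4OHT) is bound, and were given 4OHT. CKO EtOH cells carried CreER and were given the solvent ethanol (EtOH). Control 4OHT cells had no CreER and were given 4OHT, and control EtOH cells had no CreER and were given ethanol. The additions were present from day 1 to day 3 of culture and the cells were collected on day 5. The promoter that drove CreER, the floxed part of Prdm1 and the number of mice behind each culture were not stated in the labels, and the genotypes came from different mice. Each of the 4 groups had 1 array, so no difference has an error, none was tested, and no p-value is given.

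Levels are intensities on a linear scale after RMA, an array normalization, and differences are log2 differences between arrays. A gene was counted as measured when its highest value was at or over 20.04 intensity units, the median of all values in the table, which held for 7461 genes and for all 8 members. A gene with several probe sets is represented by the one with the highest mean. The arrays had medians between 19.95 and 20.22. Prdm1 had an intensity of 6.43 in CKO 4OHT, 17.0 in CKO EtOH, 52.4 in control 4OHT and 20.7 in control EtOH. It was thus lowest in CKO 4OHT. Both CKO values lay under the table median and control EtOH was close to it, where dim signal is not resolved from background. Deletion of the gene was not tested here. All 8 keratinocyte markers found on the array were measured. The basal keratin Krt14 was even (6437 in CKO 4OHT, 6624 in CKO EtOH, 6663 in control 4OHT and 6587 in control EtOH), while the suprabasal keratin Krt1 was at 21.8 in CKO 4OHT, 205 in CKO EtOH, 246 in control 4OHT and 136 in control EtOH. Itgb4, a basal integrin, was 0.80 higher on the log2 scale in CKO 4OHT than in both CKO EtOH and control 4OHT. It was 0.49 above control EtOH. Krt10 differed by -0.40 from CKO EtOH and by -0.50 from control 4OHT, but at 249 in CKO 4OHT it was above control EtOH (209). Krt5, Trp63, Col17a1 and Perp did not rise with Itgb4, and differed by -0.06, -0.19, -0.04 and -0.12 from CKO EtOH. Their differences from control 4OHT were -0.07, -0.35, -0.22 and -0.29. Compared with control EtOH, Krt5 and Trp63 were lower in CKO 4OHT, and Col17a1 (1626 against 1584) and Perp (2194 against 2142) slightly higher. Of 9 fibroblast markers, 2 were measured, and Col1a1, Col1a2, Col3a1, Pdgfra, Pdgfrb, Lum and Thy1 stayed under the table median on every array. None of 7 endothelial markers was measured. A bulk array cannot tell fewer cells of a type from less RNA per cell.

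Igfbp3, Igfbp4 and Igfbp7 are the genes that stood at least 2-fold apart from all other arrays in CKO 4OHT, and their promoter sequences are shown because of this. Each covers 250 bases before to 50 after a transcription start in RefSeq, build GRCm38.p6, 5′ to 3′ on the strand of the gene. Igfbp3 lies on the minus strand at chr11:7213874-7214173, Igfbp4 on the plus strand at chr11:99040994-99041293 and Igfbp7 on the minus strand at chr5:77407996-77408295. The windows of Igfbp3 and Igfbp4 lie inside the annotated gene spans (chr11:7206086-7215498 and chr11:99040005-99052655). The 5′ ends of these 2 spans were not scanned. Capitals mark GAAAG, the core of the sequence that Blimp-1 is known to bind, on either strand (CTTTC on the strand shown).
Igfbp3: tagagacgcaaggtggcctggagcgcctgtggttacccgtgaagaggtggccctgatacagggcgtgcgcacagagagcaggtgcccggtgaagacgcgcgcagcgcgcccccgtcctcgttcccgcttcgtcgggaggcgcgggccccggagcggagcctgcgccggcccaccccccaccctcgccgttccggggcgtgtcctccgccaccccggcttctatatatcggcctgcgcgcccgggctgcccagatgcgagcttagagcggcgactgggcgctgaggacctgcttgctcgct
Igfbp4: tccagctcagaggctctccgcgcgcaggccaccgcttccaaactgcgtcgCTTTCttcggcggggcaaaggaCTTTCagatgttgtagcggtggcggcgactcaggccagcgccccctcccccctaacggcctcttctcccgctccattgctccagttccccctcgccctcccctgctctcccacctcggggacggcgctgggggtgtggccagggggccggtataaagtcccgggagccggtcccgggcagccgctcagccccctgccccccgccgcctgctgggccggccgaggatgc
Igfbp7: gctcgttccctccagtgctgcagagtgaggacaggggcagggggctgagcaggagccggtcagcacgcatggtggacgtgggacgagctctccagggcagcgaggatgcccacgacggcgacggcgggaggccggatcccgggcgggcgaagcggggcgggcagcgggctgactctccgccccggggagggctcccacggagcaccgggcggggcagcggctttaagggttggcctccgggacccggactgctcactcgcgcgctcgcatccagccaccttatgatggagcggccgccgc
The Igfbp4 window holds 2 matches, both on the opposite strand, and the windows of Igfbp3 and Igfbp7 hold 0. These 5 letters occur on either strand in 57.3% of 32851 RefSeq promoter windows of the same length, and in 5 of the 9 windows of the 8 genes. The windows of Igfbp3, Igfbp4 and Igfbp7 are GC-rich, at 71.7%, 71.3% and 73.3% G or C, where the median over all windows is 52.7%. They also hold 37, 27 and 33 CpG dinucleotides, against a median of 7 over all windows. A match describes the letters alone, and occupancy by Blimp-1 was not measured here.

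Igfbp3, the main IGF carrier of serum and a protein made by basal keratinocytes in human skin, gave the largest differences of the set. Read by a single probe set (1423062_at), it stood at an intensity of 99.9 in CKO 4OHT, 672 in CKO EtOH, 797 in control 4OHT and 399 in control EtOH. CKO 4OHT was the lowest array, 3.99-fold under the next lowest. It was 2.75 lower than CKO EtOH on the log2 scale (-2.75, 6.72-fold) and 3.00 lower than control 4OHT (-3.00, 7.98-fold). Among the 7461 measured genes this was the 5th lowest difference against CKO EtOH and the 9th lowest against control 4OHT. All 4 values were well over the table median, so neither side of these folds rests on a dim signal.

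Among the other arrays, Igfbp3 was lowest in control EtOH. Control 4OHT exceeded control EtOH by 1.00 on the log2 scale, just inside the 2-fold threshold, and CKO EtOH exceeded control EtOH by 0.75 (1.69-fold). The second of these was the 10th highest difference of 7461 between the ethanol arrays. The drug effect thus ran in opposite directions in the genotypes, -2.75 in CKO cells and 1.00 in control cells, a difference of -3.75 that ranked 6th lowest of all measured genes.

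Igfbp4, a binding protein that restrains IGF action and is released from it by the protease pregnancy-associated plasma protein A, was also lower in CKO 4OHT by its main probe set (1437405_a_at). The intensities were 18.7 in CKO 4OHT, 72.1 in CKO EtOH, 44.7 in control 4OHT and 72.2 in control EtOH. Both ethanol arrays were thus alike, control 4OHT was lower and CKO 4OHT was lowest. The log2 differences were -1.95 between CKO 4OHT and CKO EtOH, -1.25 between CKO 4OHT and control 4OHT, and -0.69 between control 4OHT and control EtOH. The CKO 4OHT value lies under the table median, where RMA compresses differences and dim signal is not resolved from background.

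The 6 probe sets of Igfbp4 did not give 1 size. In 5 of them CKO 4OHT was the lowest of the 4 arrays. The differences against CKO EtOH ran from -2.05 (1423756_s_at, 10.4 in CKO 4OHT and 43.2 in CKO EtOH) to 0.01 (1421991_a_at, 19.4 in CKO 4OHT and 19.3 in CKO EtOH), with a median of -0.90, and 2 of the 6 passed 2-fold. Against control 4OHT all 6 were below 0, between -1.25 and -0.38 with a median of -0.62, and 1 passed 2-fold. Probe sets ending in _s_at or _x_at may read related sequences as well. The sign of the Igfbp4 difference against control 4OHT was therefore shared, while its size and its place past 2-fold rest on which probe set is read.

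Igfbp7, a matrix-associated protein with low affinity for IGFs, was the binding protein that was higher in CKO 4OHT. The main probe set (1423584_at) gave an intensity of 606 in CKO 4OHT, 225 in CKO EtOH, 233 in control 4OHT and 235 in control EtOH. The values of CKO EtOH, control 4OHT and control EtOH lay within 1.05-fold of each other, and CKO 4OHT was 2.58-fold above the highest of them. CKO 4OHT differed from CKO EtOH by 1.43 and from control 4OHT by 1.38 on the log2 scale, the 59th and 45th highest of 7461, and -0.01 for the drug in control cells.

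The other Igfbp7 probe sets were dimmer and divided. At 1423585_at the intensities were 21.9 in CKO 4OHT, 14.4 in CKO EtOH, 11.9 in control 4OHT and 16.5 in control EtOH, again highest in CKO 4OHT, by 0.61 over CKO EtOH and 0.88 over control 4OHT. At 1437804_at they were 32.5 in CKO 4OHT, 33.7 in CKO EtOH, 34.2 in control 4OHT and 32.5 in control EtOH, a range of 0.07 on the log2 scale. The 3 probe sets thus did not share the difference, and which transcript forms each reads was not analysed here. Markers of vessels, where Igfbp7 is known to be abundant, were under the table median on every array. The summed intensity of the 7 endothelial markers was 54.24 in CKO 4OHT, 62.56 in CKO EtOH, 60.53 in control 4OHT and 53.88 in control EtOH. The part of vessel cells in the Igfbp7 values was not tested.

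**Figure D1:**
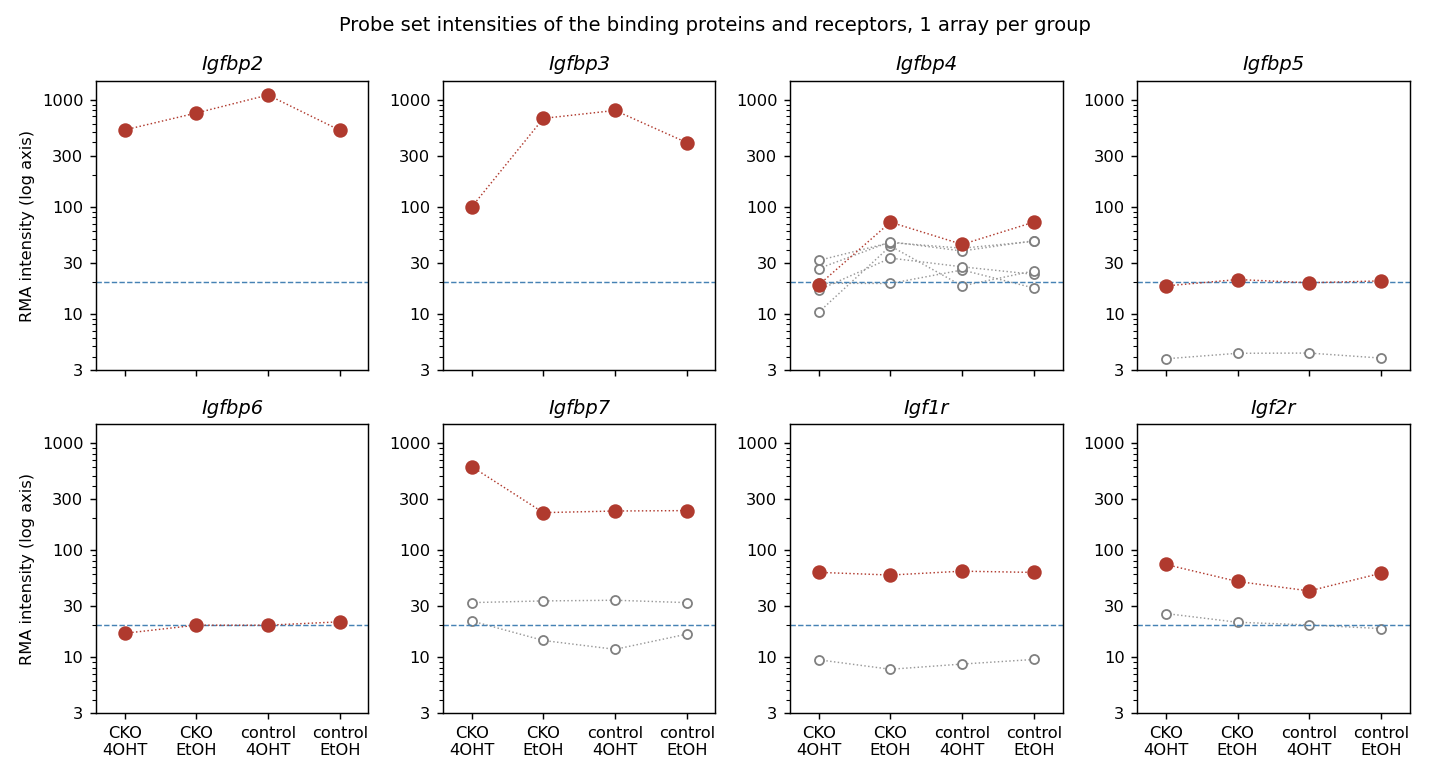
Intensity (log axis) of every probe set of the 8 genes on the 4 arrays, 1 array per group. Filled red points are the main probe set, open grey points the other probe sets, dotted lines join the values of a probe set, and the dashed line is the table median of 20.04. Igfbp3 dips to 99.9 and Igfbp7 stands at 606 in CKO 4OHT.

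**Figure D2:**
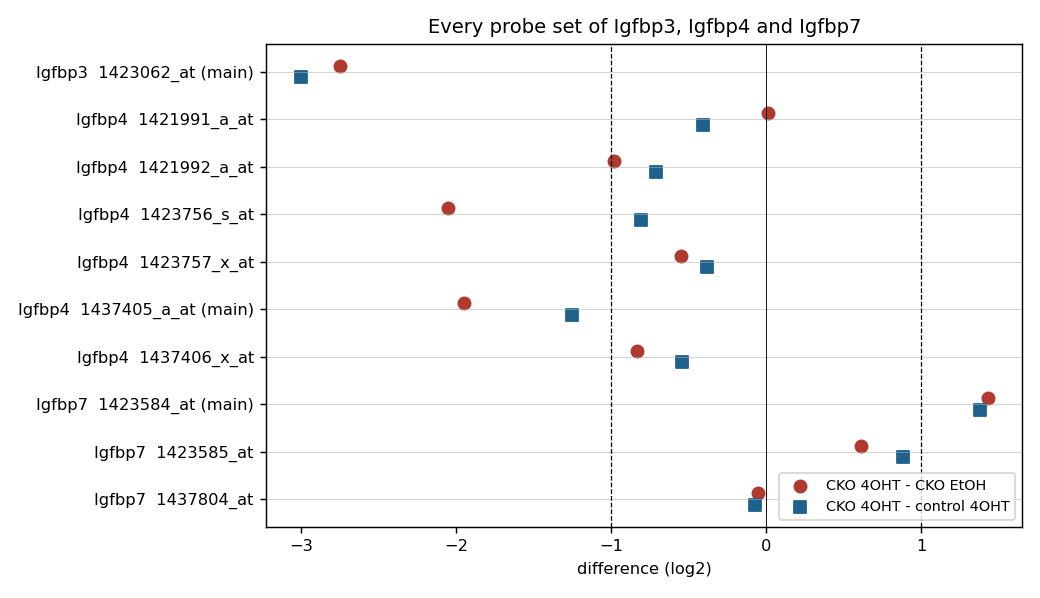
Log2 difference of CKO 4OHT from CKO EtOH (red circles) and from control 4OHT (blue squares) for each probe set of Igfbp3, Igfbp4 and Igfbp7. Dashed lines mark 2-fold. The 6 Igfbp4 probe sets run between -2.05 and 0.01 against CKO EtOH, and 1 of 3 Igfbp7 probe sets lies at -0.05.

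Igfbp2, a binding protein that also carries an integrin-binding motif, followed the drug in control cells. It stood, by its single probe set (1454159_a_at), at an intensity of 524 in CKO 4OHT, 754 in CKO EtOH, 1111 in control 4OHT and 521 in control EtOH. It was highest in control 4OHT, and CKO 4OHT and control EtOH were nearly equal. The drug difference was -0.52 in CKO cells and 1.09 in control cells, so the drug effects differed by -1.62. Against control 4OHT, CKO 4OHT was lower by 2.12-fold (-1.08). As with Igfbp3, the CKO EtOH array was above control EtOH (0.53, the 58th highest of 7461).

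Igfbp5, a binding protein held in the matrix, and Igfbp6, which prefers IGF2, differed little between arrays and sat at the table median. Igfbp5 (1422313_a_at) had an intensity of 18.3 in CKO 4OHT, 21.0 in CKO EtOH, 19.6 in control 4OHT and 20.4 in control EtOH, a range of 0.20 on the log2 scale. Igfbp6 (1417933_at) had 16.8 in CKO 4OHT, 20.0 in CKO EtOH, 20.0 in control 4OHT and 21.5 in control EtOH, a range of 0.35. For both the CKO 4OHT array was the lowest. Levels this close to the median of all probe sets, in a table with no detection calls, do not show whether the transcripts were above background.

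The genes lie on 6 chromosomes by RefSeq positions (GRCm38.p6), and some lie next to another binding protein gene. Igfbp2 (chr1:72824480-72852474) and Igfbp5 (chr1:72858065-72874865) are 5590 bases apart with 0 annotated genes between them. Igfbp2 ranged over 1.09 on the log2 scale and Igfbp5 over 0.20. Igfbp3 (chr11:7206086-7215498) lies 3539 bases from Igfbp1 (chr11:7197787-7202546), a binding protein best known from liver. Igfbp1 was not measured, at an intensity of 4.04 in CKO 4OHT, 6.03 in CKO EtOH, 5.63 in control 4OHT and 6.03 in control EtOH. Because Igfbp5 sat at the table median and Igfbp1 under it, these values cannot show whether neighbouring genes differed.

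Of the receptors, Igf1r was flat. The main probe set (1426565_at) gave an intensity of 62.3 in CKO 4OHT, 58.8 in CKO EtOH, 63.9 in control 4OHT and 62.2 in control EtOH, a range of 0.12 on the log2 scale. The second Igf1r probe set (1452108_at) was no higher than 9.57 on any array. Igf2r (1424112_at) was highest in CKO 4OHT at 73.8, with 51.2 in CKO EtOH, 41.8 in control 4OHT and 61.1 in control EtOH. Its drug difference was 0.53 in CKO cells and -0.55 in control cells, so these differed by 1.07. The difference between CKO 4OHT and control 4OHT was 0.82 (1.77-fold), short of 2-fold. The second Igf2r probe set (1424111_at) was also highest in CKO 4OHT, at 25.7 against 18.6 to 21.3. There CKO 4OHT was 0.36 above control 4OHT on the log2 scale, and the drug effects differed by 0.16.

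Counted by comparison, CKO 4OHT against CKO EtOH had Igfbp7 higher and Igfbp3 and Igfbp4 lower by at least 2-fold among the 8 genes. Over all measured genes 1.78% were higher and 1.86% lower. The median difference of the 8 genes was -0.23, and that of all measured genes was 0.01. CKO 4OHT against control 4OHT had Igfbp7 higher and Igfbp2, Igfbp3 and Igfbp4 lower, where 1.45% of measured genes were higher and 2.24% lower. The median was -0.18 for the 8 genes and 0.01 for all. Both comparisons share the CKO 4OHT array, so they are not separate readings of it.

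Control 4OHT against control EtOH, which held the drug without CreER, had Igfbp2 and Igfbp3 higher and 0 of the 8 lower. Of all measured genes 1.27% were higher and 0.241% lower, and the medians were -0.03 for the 8 genes and -0.04 for all. CKO EtOH against control EtOH, which held CreER without the drug as well as the difference between mice, had 0 of the 8 past 2-fold, where 0.0536% of measured genes were higher and 0% lower. The difference of the drug effects, CKO minus control, was past 1 for Igfbp7 and Igf2r (2.75% of measured genes) and past -1 for Igfbp2, Igfbp3 and Igfbp4 (2.9%). In 4 of the 8 genes and 4.72% of measured genes the drug effects had opposite signs and differed by at least 1.

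By distance from all other arrays at once, CKO 4OHT had Igfbp7 apart above (0.751% of measured genes) and Igfbp3 and Igfbp4 apart below (1.09%). None of the 8 was apart on another array. There the shares over all measured genes were 0.281% above and 0.0268% below in control 4OHT, and 0% in each direction in CKO EtOH and control EtOH.

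**Figure D3:**
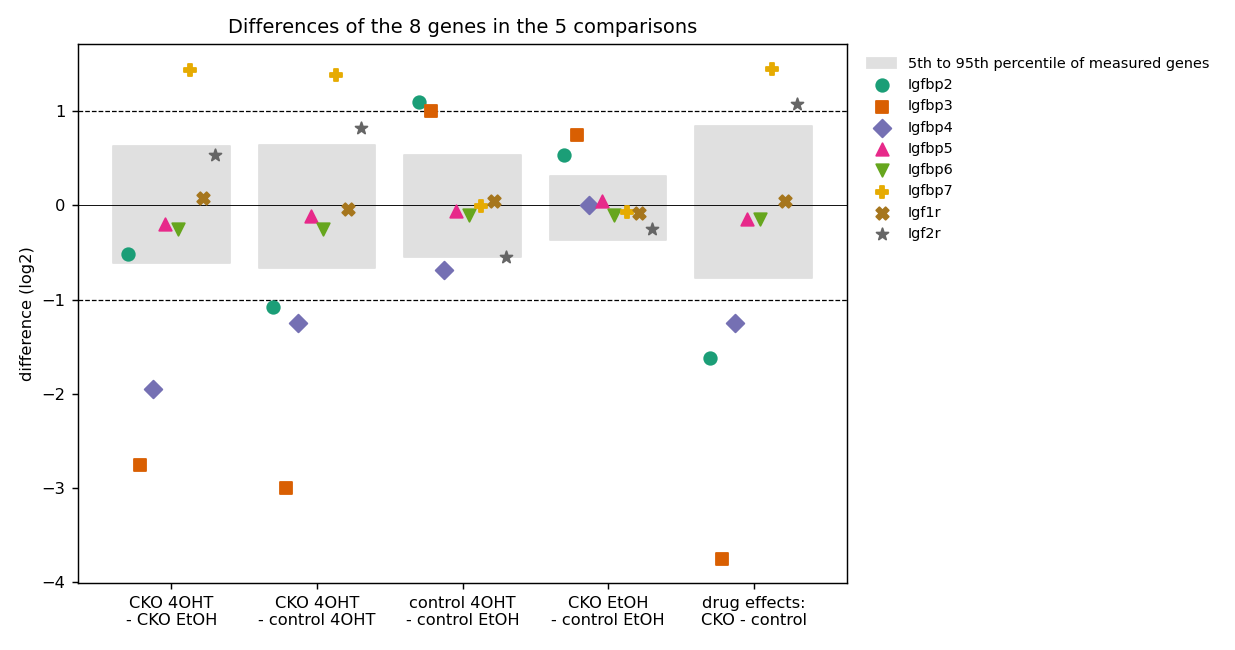
Log2 differences of the 8 genes in the 4 comparisons of array pairs and in the difference of the drug effects, with grey bands for the 5th to 95th percentile of the 7461 measured genes. Dashed lines mark 2-fold. Igfbp3, Igfbp4 and Igfbp7 lie outside the band in both comparisons of CKO 4OHT, and Igf1r, Igfbp5 and Igfbp6 lie inside all bands.

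**Figure D4:**
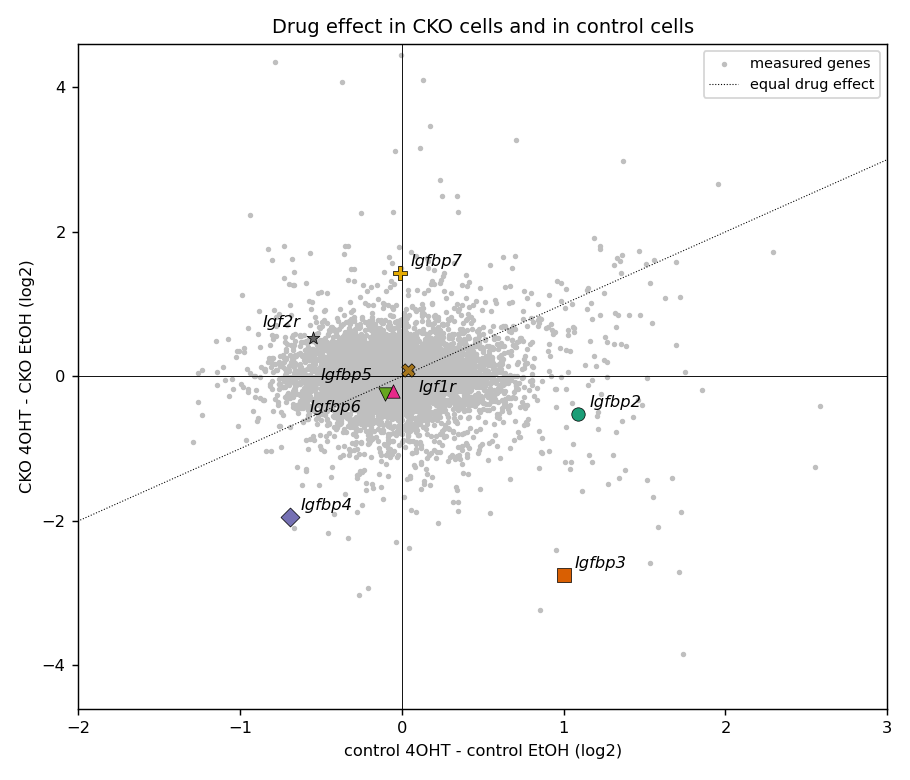
Drug effect in control cells (horizontal, control 4OHT minus control EtOH) and in CKO cells (vertical, CKO 4OHT minus CKO EtOH), both log2, for the 8 genes and for all measured genes in grey. The axes share no array. Igfbp3 lies at 1.00 and -2.75 and Igfbp7 at -0.01 and 1.43, away from the dotted line of equal effects.

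The measured genes with the most similar profile were named for each member that ranged over at least 2-fold. Similarity was the root mean square distance over the 4 arrays of log2 values centred on the mean of each gene. For Igfbp3 these were Krt1, a keratin of suprabasal cells (0.24), Saa3, an acute phase protein (0.31), and Wfdc18 (0.35). Only Krt1 lay within a distance of 0.25 of Igfbp3. In CKO 4OHT, Saa3 (10.7) and Wfdc18 (17.6) were under the table median and Krt1 (21.8) was close to it.

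Igfbp4 was nearest to Cdhr1 (0.12), a cadherin-related protein, Irx4 (0.13), a homeobox factor, and 2610528A11Rik (0.15), and 16 genes lay within 0.25. In CKO 4OHT the named genes were under the table median, at 8.32, 13.3 and 8.44, so their distances rest in part on dim signal. For Igfbp7 the nearest were Epha2 (0.03), a receptor of ephrins, Ikbke (0.07), a kinase of innate immune signalling, and Gapdhs (0.08), with 72 genes within 0.25. Epha2 was at 129 in CKO 4OHT, 45.3 in CKO EtOH, 49.8 in control 4OHT and 49.9 in control EtOH. For Igfbp2 they were Bbox1 (0.08), an enzyme of carnitine synthesis, Slc40a1 (0.10), the iron exporter ferroportin, and Gdpd2 (0.10), with 138 genes within 0.25. Slc40a1 reached the table median in control 4OHT alone. Distances over 4 arrays describe these profiles and do not show a relation between the genes.

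Of 5 genes listed as ligands and serum carrier, 3 were measured, and 0 of these passed 2-fold in any comparison. Between 0% and 2.9% of all measured genes passed per comparison and direction, so a count of 0 of 3 is near that background. Igf2 had an intensity of 34.3 in CKO 4OHT, 28.5 in CKO EtOH, 28.8 in control 4OHT and 26.4 in control EtOH. Igfals, the acid-labile subunit that joins IGF and Igfbp3 in serum, had 13.5 in CKO 4OHT, 16.8 in CKO EtOH, 21.4 in control 4OHT and 14.4 in control EtOH. Igfals thus reached the table median in control 4OHT alone. Ins2 was between 34.8 and 42.0. Igf1 was not measured and was no higher than 10.8. Insr, Insrr, Igfbp1 and Igfbpl1 were not measured either. Protein in the medium was not read.

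Proteases and inhibitors that act on binding proteins or share their pericellular space differed in both directions. Of 16 listed, 9 were measured, but Adam12 and Mmp3 reached the table median in CKO 4OHT alone, where they were high. Of the other 7, 3 were higher and 2 lower in CKO 4OHT than in CKO EtOH, with a median of -0.22, where 1.78% of all measured genes were higher and 1.86% lower. Against control 4OHT 1 was higher and 2 lower, with a median of -0.24, where the shares over all genes were 1.45% and 2.24%. With Adam12 and Mmp3 the medians were 1.13 and 0.43, above 0 in both comparisons. Adam12, a metalloprotease known to cleave Igfbp3 and Igfbp5, had an intensity of 29.0 in CKO 4OHT, 13.1 in CKO EtOH, 11.6 in control 4OHT and 16.0 in control EtOH. Mmp3, stromelysin-1, had 20.7 in CKO 4OHT, 9.33 in CKO EtOH, 8.18 in control 4OHT and 11.7 in control EtOH. Both were close to the table median in CKO 4OHT and under it elsewhere, so their log2 differences against CKO EtOH, 1.15 each, are imprecise.

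The kallikreins Klk6 (1.91), Klk8 (1.77) and Klk10 (1.13) were higher than in CKO EtOH. Against control 4OHT they differed by 1.45, 0.60 and 0.43, so Klk6 alone passed 2-fold there. In control cells the drug difference was 1.19 for Klk6, 1.22 for Klk8 and 0.91 for Klk10. Mmp2, gelatinase A, was lower, at 43.4 in CKO 4OHT against 107 in CKO EtOH, 101 in control 4OHT and 119 in control EtOH. Adamts1 was lower as well, at 82.6 in CKO 4OHT against 176 in CKO EtOH, 169 in control 4OHT and 181 in control EtOH. Pappa, the Igfbp4 protease, was not measured and reached at most 9.74, while its inhibitor Stc2 was between 28.9 and 35.6.

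Among the 4 measured of 10 listed proteins with a domain like that of the binding proteins, Ccn2, a matricellular growth factor, was measured through CKO 4OHT alone. It had an intensity of 55.7 in CKO 4OHT, 11.5 in CKO EtOH, 13.3 in control 4OHT and 13.8 in control EtOH, the last 3 under the table median. Of the other 3 none passed 2-fold. Ccn1 had 60.9 in CKO 4OHT, 44.4 in CKO EtOH, 41.3 in control 4OHT and 40.4 in control EtOH, higher in CKO 4OHT by less than 2-fold. Htra1, a secreted serine protease, was bright and even, between 2256 and 2701. Crim1 was lowest in CKO 4OHT, at 16.7 against 28.2 to 41.3.

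Inside the cell, 0 of 6 measured receptor adaptors and 0 of 12 measured genes of PI3K, AKT and mTOR signalling passed 2-fold in any comparison. Between 0% and 2.9% of all measured genes passed in a given comparison and direction, so counts of 0 in lists this short are near that background. The brightest adaptors were Gab1 (88.0 in CKO 4OHT, 95.1 in CKO EtOH, 115 in control 4OHT and 117 in control EtOH) and Grb2 (85.8 in CKO 4OHT, 77.1 in CKO EtOH, 70.7 in control 4OHT and 68.7 in control EtOH). Of the signalling genes the brightest were Eif4ebp1, a target of mTOR (650 in CKO 4OHT, 628 in CKO EtOH, 710 in control 4OHT and 686 in control EtOH), and Rheb, its activator (437 in CKO 4OHT, 373 in CKO EtOH, 330 in control 4OHT and 439 in control EtOH). Irs2, an adaptor of the IGF and insulin receptors, was 28.5 in CKO 4OHT, 21.4 in CKO EtOH, 28.5 in control 4OHT and 21.3 in control EtOH. Transcript levels do not read the phosphorylation through which these proteins signal.

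Markers of other cells differed in CKO 4OHT in both directions, in each list through few genes. Fbln1, a matrix gene of the fibroblast list, was at 65.9 in CKO 4OHT against 136 in CKO EtOH, 142 in control 4OHT and 121 in control EtOH. Acta2, smooth muscle actin, was at 84.8 in CKO 4OHT against 189 in CKO EtOH, 225 in control 4OHT and 155 in control EtOH. The summed intensity of the 9 fibroblast markers was 142.9 in CKO 4OHT, 215.7 in CKO EtOH, 223.0 in control 4OHT and 197.0 in control EtOH. Most of this difference was Fbln1, and Dcn, the other measured fibroblast marker, was at 22.6 in CKO 4OHT, 21.6 in CKO EtOH, 26.1 in control 4OHT and 23.8 in control EtOH. The 5 pericyte and smooth muscle markers summed to 138.0 in CKO 4OHT, 260.0 in CKO EtOH, 291.4 in control 4OHT and 225.3 in control EtOH. Most of this difference was Acta2. Cspg4 was at 21.7 in CKO 4OHT and 33.2 to 37.1 elsewhere, and Myh11, Rgs5 and Des were not measured. The 7 leukocyte markers summed to 158.6 in CKO 4OHT, 238.5 in CKO EtOH, 264.6 in control 4OHT and 244.8 in control EtOH. In the leukocyte list Cd68, at 98.2 in CKO 4OHT and 171 to 198 elsewhere, carried most of this, and Ptprc, which defines leukocytes, was no higher than 4.73. The summed intensity of the 6 melanocyte markers on the array went the other way. It was 145.6 in CKO 4OHT, 118.8 in CKO EtOH, 129.4 in control 4OHT and 126.2 in control EtOH. Dct was at 40.3 in CKO 4OHT and 26.5 to 27.5 elsewhere, and Tyrp1 reached the table median in CKO 4OHT alone. Against control 4OHT, Dct, Tyrp1 and Pmel differed by 0.55, 0.21 and 0.19, and Tyr, Mitf and Sox10 by -0.21, -0.01 and -0.06. The part of these cells in the Igfbp3, Igfbp4 and Igfbp7 values was not tested.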

How the data were processed

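Biotin-labelled cRNA of 4 keratinocyte cultures was read on the Affymetrix Mouse Expression Array 430A, per the labels' protocols. The deposited table holds an RMA intensity for every probe set of each array, linear and between 2.66 and 7167, per the submitters' processing notes, which name no version. RMA pulls arrays to like distributions and compresses dim differences. From this table log2 was taken with no pseudocount, in Python 3.11.15 with pandas 2.3.3. Probe sets were named by the platform annotation supplied with the data: 20380 named 1 gene, 691 several, and 1555 were not listed there. All 8 Entrez identifiers matched the RefSeq gene table. Where several probe sets named a gene, that of highest mean stood for it. With 1 array per group no test was run, and the number of arrays limits the precision. Named were all members, the 3 nearest genes of each member with a 2-fold range, and pathway genes past 2-fold or, in lists with none, the brightest; further list genes were chosen after their values were seen. Members and lists were chosen with earlier results of these data known. Leaving out list genes measured in CKO 4OHT alone was chosen after seeing the data. The counting and similarity steps were run on simulated data with low noise, planted differences well past 2-fold and a planted copy of a profile. That run checks the code and does not cover calls near 2-fold.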

Additional observations from a re-analysis of the deposited data

Results flagged for a closer look

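For 4 of the 8 genes the drug effects in CKO and control cells had opposite signs and differed by at least 1 on the log2 scale, as they did in 4.72% of all measured genes. They differed by -3.75 for Igfbp3, -1.62 for Igfbp2, 1.45 for Igfbp7 and 1.07 for Igf2r. The last 2 depend on the probe set read. The second Igf2r probe set gave 0.16, and the other Igfbp7 probe sets gave 1.07 and -0.12. Averaging all probe sets of a gene gave 0.62 for Igf2r and 0.8 for Igfbp7, both under 1. The control drug effect of Igfbp7 was -0.01, so its opposite sign carries little. With 1 array per group these differences were not tested.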

How the results depend on the processing

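Igfbp3 stayed at least 2-fold below all other arrays in CKO 4OHT under all 8 alternatives, but most of these could not change that. It has a single probe set, its level passes each filter, and a lower threshold or fewer arrays cannot undo the call. Its distance from the nearest array was -2.02 after further quantile normalization and -1.92 with a pseudocount. Averaging all probe sets of a gene left 0 members higher in each comparison of CKO 4OHT and in the difference of the drug effects, and 0 above and 1 below all other arrays. There Igfbp4 differed by -1.06 from CKO EtOH and -0.69 from control 4OHT, and Igfbp7 by 0.66 and 0.73. Further quantile normalization left 1 member higher in the difference of the drug effects. A pseudocount of 7.22 left 1 higher there, 1 higher for the drug in control cells (Igfbp3 at 0.99) and 1 below all other arrays. Requiring the 75th percentile kept 3 members, with 1 higher in the difference of the drug effects, 1 lower against CKO EtOH and 1 below all other arrays. Its medians were -1.08 against control 4OHT, 1.00 for the drug in control cells and -1.62 for the difference of the drug effects. At 1.5-fold 2 members were higher against control 4OHT (6.65% of measured genes), 1 was lower for the drug in control cells (3.91%) and 1 was higher in CKO EtOH (0.59%). Without control 4OHT, Igfbp4 lay -1.95 from the nearest array, and without control EtOH Igfbp3 lay -2.75. No called value changed sign. A value counted as moved past 1.5-fold or across the threshold, and the cause was not tested. No paired analysis was possible because each group has 1 array. Dim signal limits Igfbp4, Igfbp5 and Igfbp6.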

Other observations

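Genes linked to FOXO transcription factors, which IGF signalling is known to keep out of the nucleus, showed 0 of 8 measured members past 2-fold in any comparison, near the 0% to 2.9% of all measured genes that passed per direction. The median was -0.28 between CKO 4OHT and CKO EtOH and -0.11 between CKO 4OHT and control 4OHT. Over all measured genes it was 0.01 in both comparisons. Txnip, an inhibitor of thioredoxin, had an intensity of 481 in CKO 4OHT, 832 in CKO EtOH, 861 in control 4OHT and 861 in control EtOH. Sesn1, a stress-induced regulator of mTOR, had 67.8 in CKO 4OHT, 111 in CKO EtOH, 127 in control 4OHT and 128 in control EtOH. Both were lowest in CKO 4OHT by less than 2-fold. In CKO 4OHT, Ccng2 and Sod2 were also below CKO EtOH and control 4OHT. Bcl6 differed from these arrays by -0.51 and -0.03, and Cat by -0.28 and 0.03. Sesn3 differed by -0.04 and 0.22, and Trib1 was higher than both, by 0.20 and 0.38.

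Foxo3 was highest in control EtOH, at 108 in CKO 4OHT, 93.4 in CKO EtOH, 107 in control 4OHT and 178 in control EtOH. The Igf2 mRNA-binding genes Igf2bp1 and Igf2bp3 were not measured and were no higher than 12.3 and 8.06.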
